A study of Mus musculus with 12 samples.

Results

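Genes of the constitutive proteasome were compared across 4 groups of mouse CD4+ T cells. The members were chosen by symbol alone: names beginning with Psma to Psmg and a number, without the -ps suffix of pseudogenes and without the interferon-inducible genes Psmb8, Psmb9, Psmb10, Psme1 and Psme2. Of 35492 symbols, 54 matched the pattern, 4 carried the suffix and 5 were the inducible genes, which left 45 members. They were 8 genes of the 20S alpha ring, 8 of the 20S beta ring, 6 of the 19S ATPase ring, 11 of the other 19S subunits, 7 assembly chaperones, 3 activators or inhibitors, and 2 genes, Psmc3ip and Psme2b, that the symbol rule takes in although they are not subunits of the particle.

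The proteasome is the protease that degrades proteins tagged with ubiquitin. Its 20S core is a barrel of stacked alpha and beta rings with the cutting sites inside the beta rings, and its 19S cap binds the tagged protein, removes the ubiquitin, and unfolds and feeds in the chain through a ring of ATPases. In lymphocytes, inducible subunits can replace the constitutive cutting subunits and form the immunoproteasome, which favours peptides for MHC class I.

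RNA was sequenced in 12 libraries, 3 per group, from C57BL/6J mice aged 7 weeks. Tfh_tumour was cells positive for CD4, CXCR5 and PD1, the markers by which follicular helper T (Tfh) cells are sorted, taken from tumours of the mouse colon carcinoma line MC38. Tfh_WT was naive wild-type CD4+ cells from spleen and lymph node, activated on plates coated with antibodies to CD3 and CD28 in IL-6 and IL-21, each at 50 ng/ml, with antibodies at 10 µg/ml neutralising IL-4, IFNγ and TGFβ. Tfh_OTII was the same culture begun with cells of OT-II mice, which carry a transgenic T cell receptor for ovalbumin. Th1_WT was naive wild-type cells activated likewise in IL-12 at 10 ng/ml with an antibody against IL-4. The titles state 48 h for Tfh_OTII but 24 h for the wild-type cultures, while the protocol states 48 h throughout, so genotype and possibly time differ together between Tfh_OTII and the other cultures and cannot be told apart.

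Values are TPM, transcript abundances per fixed total, which are already divided by transcript length and sum to 1000000 in each library, so depth is unknown. In Th1_WT the 10 most abundant gene models took 50.7% to 66.5% of all TPM, against 14.4% to 30.7% in the other libraries, and 19.5% to 41.4% of symbols were at 0. This leaves less TPM for every other gene, and the direction of most members against Th1_WT depends on whether that is corrected. The main values are therefore scaled TPM, divided by a size factor that sets the typical gene equal between libraries (0.472 to 0.668 in Th1_WT, 1.06 to 1.44 elsewhere). Ratios between members of 1 library do not depend on this choice. T cell markers were present in every library, and none of the 8 was at 0 in a group. The summed level of 10 macrophage and monocyte markers was 76.2, 752 and 198 TPM in Tfh_tumour replicates 1, 2 and 3, and 7.00 to 31.3 TPM in the cultures; all 10 were above 0 in each group, and 8 averaged under 1 TPM in Th1_WT. Its part in the results was not tested.

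Every member was detected, and levels followed the roles. The 20S and 19S genes, leaving out Psma8 and Psmb11, were 31 genes with means over the 12 libraries from 44.0 TPM for Psmd3, a scaffold subunit of the cap, to 223 TPM for Psma4, an alpha-ring subunit. With Psma8 and Psmb11 included, median means were 118 TPM in the alpha ring and 77.5 TPM in the beta ring. They were 111 TPM in the ATPase ring, 80.2 TPM among the other 19S subunits and 18.0 TPM among the chaperones. Tissue-restricted genes were the low extremes. Psma8, the testis alpha subunit, averaged 0.361 TPM and was the 1 member below the filter for testing (a mean of 1 scaled TPM in at least 1 group), so 44 members were tested. Psmb11, the thymic cortical beta subunit, ranged from 1.65 to 4.10 TPM over the 12 libraries, and its annotated locus (chr14:54621433-54629556, plus strand) starts close to that of Psmb5 (chr14:54614119-54618022, minus strand).

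**Figure D1:**
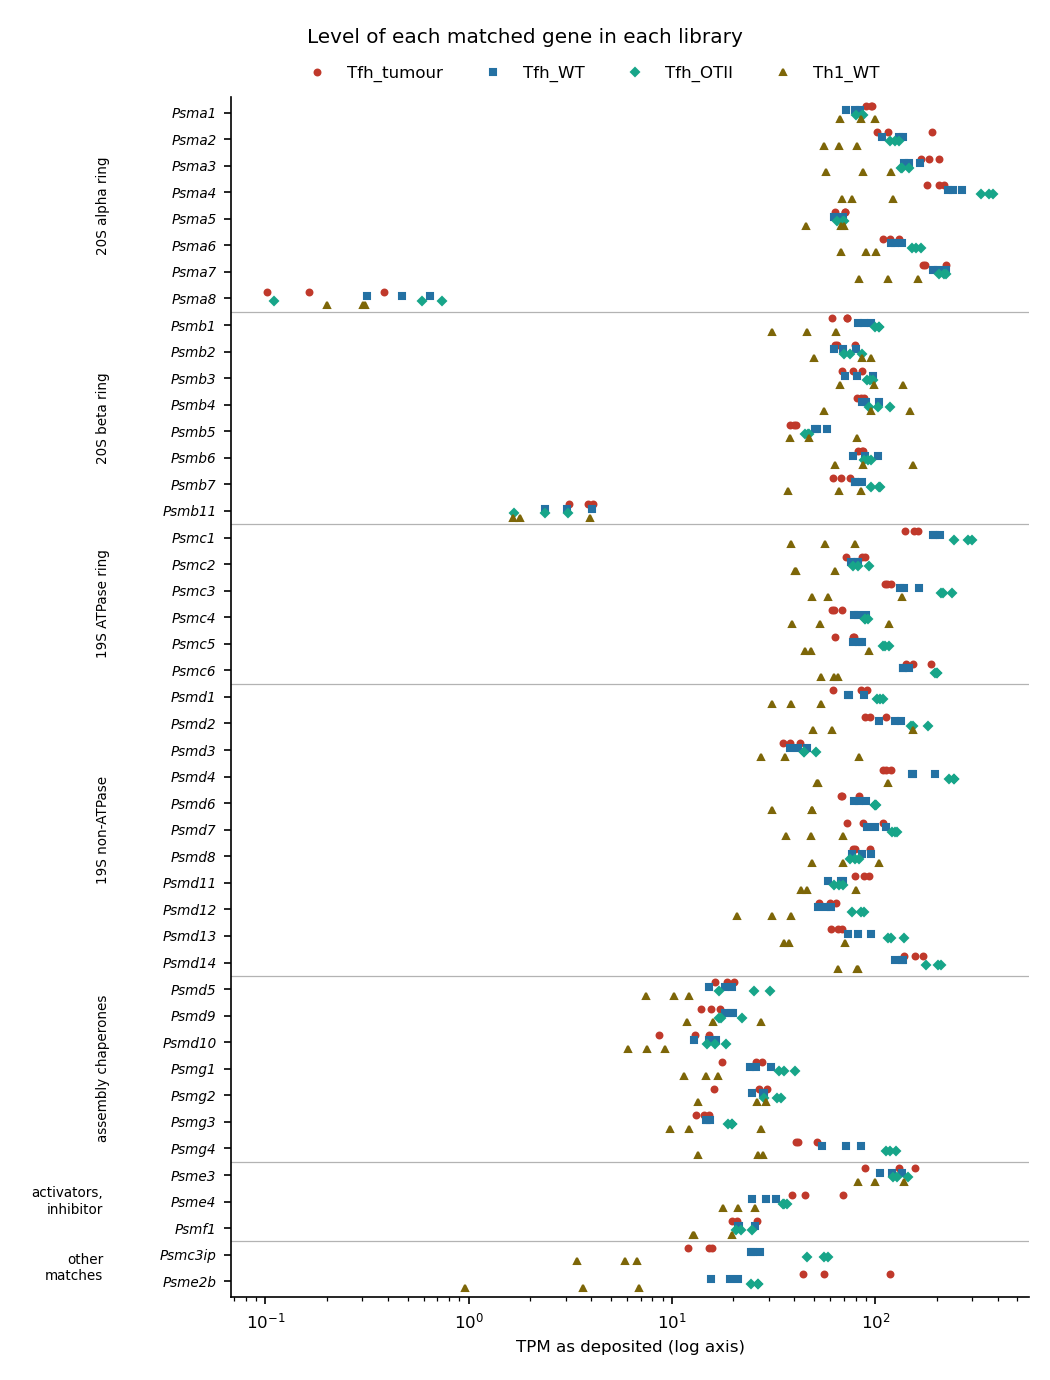
TPM as deposited (horizontal log axis) of the 45 members (vertical axis, by role) in each of the 12 libraries; each point is 1 library and colours and shapes mark the groups. Most 20S and 19S genes lie near 100 TPM, chaperones lie lower, and Psma8 and Psmb11 lie far below the rest.

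The regulatory sequence of 5 members is shown because the results below turn on them: Psmc1 and Psmd4 of the cap, and the beta-ring genes Psmb3, Psmb5 and Psmb6. Each is 120 bases upstream of the start in both RefSeq (GRCm38.p6) and GENCODE, 5′ to 3′ on the gene's strand. Capitals mark CGGAAG, the core of sites for ETS factors, CCAAT, the box bound by NF-Y, and TGACNNNGC, the core of the antioxidant-type element bound by the Nrf family, each on either strand.
Psmc1, chr12:100110034-100110153, plus strand: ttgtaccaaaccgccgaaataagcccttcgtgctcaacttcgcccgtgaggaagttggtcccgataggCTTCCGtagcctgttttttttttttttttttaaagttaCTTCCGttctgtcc
Psmd4, chr3:95042615-95042734, minus strand: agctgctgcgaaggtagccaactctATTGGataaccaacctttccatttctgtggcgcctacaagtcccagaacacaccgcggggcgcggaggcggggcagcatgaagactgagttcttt
Psmb3, chr11:97703279-97703398, plus strand: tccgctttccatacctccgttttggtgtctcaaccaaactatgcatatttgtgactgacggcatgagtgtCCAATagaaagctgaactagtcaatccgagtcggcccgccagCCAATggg
Psmb5, chr14:54618023-54618142, minus strand: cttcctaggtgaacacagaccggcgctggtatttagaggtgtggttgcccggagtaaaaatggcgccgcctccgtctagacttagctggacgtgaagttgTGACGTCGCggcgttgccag
Psmb6, chr11:70525237-70525356, plus strand: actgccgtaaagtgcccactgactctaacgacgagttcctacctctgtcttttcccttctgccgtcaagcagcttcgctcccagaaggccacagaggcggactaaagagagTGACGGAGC

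The RefSeq table held 37 of the 45 members. Within 250 bases upstream, CGGAAG or its complement CTTCCG was in 20 of the 37 promoters (54.05%), against 15.32% of all 27025 promoters and 33.05% of the 6146 promoters of genes at 10 TPM or more. CCAAT or ATTGG was in 14 (37.84%), against 37.49% of all promoters and 40.3% of those of genes at 10 TPM or more. TGACNNNGC or GCNNNGTCA was in 5 (13.51%), those of Psmb5, Psmb6, Psmc6, Psmd9 and Psmd12. This compares with 11.52% of all promoters and 14.19% of those of genes at 10 TPM or more. These are letter matches and not measured binding.

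Against Th1_WT, the beta ring stood apart from the rest of the particle. The summed TPM of the beta-ring genes other than Psmb11 divided by that of the 6 ATPase-ring genes was 1.27, 1.65 and 1.39 in Th1_WT. It was 0.751, 0.786 and 0.745 in Tfh_tumour, 0.805, 0.746 and 0.749 in Tfh_WT, and 0.638, 0.616 and 0.627 in Tfh_OTII. Every Th1_WT library was above every other library, and every Tfh_OTII library was below every other library. The ATPase ring relative to the other 19S subunits differed less. It was 0.579 to 0.612 in Th1_WT and 0.680 to 0.755 in the 9 other libraries, again without overlap. The beta ring over the alpha ring was 0.756 to 1.18 in Th1_WT and 0.463 to 0.590 in the 9 others. The alpha ring over the ATPase ring was 1.18 to 2.18 in Th1_WT, which overlapped the 9 others at 1.15 to 1.62. The ratio of single genes can be wider still: Psmc1 over Psmb3, chosen after its values were seen, was 0.573, 0.571 and 0.577 in Th1_WT, 1.90 to 2.05 in Tfh_tumour, 2.14 to 2.72 in Tfh_WT and 2.62 to 3.15 in Tfh_OTII.

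**Figure D2:**
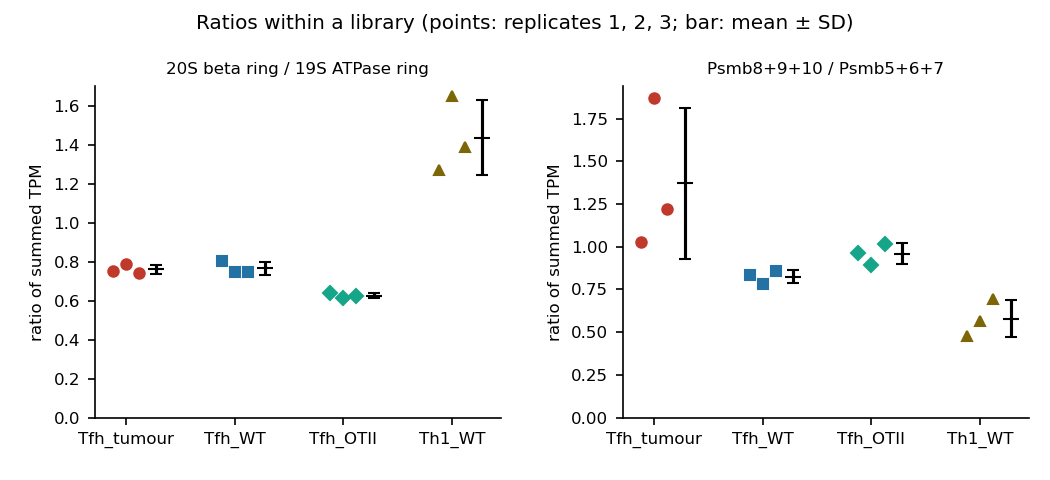
Ratios of summed TPM within each library (vertical axes) for the 4 groups; points are replicates 1, 2 and 3 and bars are mean ± SD (n = 3). Left, beta ring over ATPase ring, highest in the 3 Th1_WT libraries (1.27 to 1.65); right, inducible over constitutive catalytic subunits, lowest in Th1_WT (0.478 to 0.693) and highest in Tfh_tumour replicate 2 (1.87).

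Whether the beta-ring or the ATPase genes made the ratio high in Th1_WT depended on the scale. As deposited, the median log2 fold change of the 8 beta-ring genes was 0.01, 0.02 and -0.12 in Tfh_WT, Tfh_OTII and Tfh_tumour against Th1_WT. That of the 6 ATPases was 0.86, 1.26 and 0.72. On scaled TPM the medians were -1.06, -1.01 and -1.32 for the beta ring and -0.21, 0.15 and -0.48 for the ATPases. Psmb3, a structural beta subunit, was at 85.7, 68.3 and 77.5 TPM in Tfh_tumour, 97.0, 71.1 and 81.6 in Tfh_WT, 93.6, 90.6 and 97.1 in Tfh_OTII, and 66.9, 98.7 and 137 in Th1_WT. Psmb5, the chymotrypsin-like cutting subunit, was at 40.6, 37.9 and 40.0 TPM in Tfh_tumour, 57.6, 51.8 and 50.3 in Tfh_WT, 46.5, 47.4 and 44.8 in Tfh_OTII, and 37.9, 47.2 and 81.5 in Th1_WT. As deposited, Th1_WT overlapped each Tfh group for both genes, with Th1_WT replicate 3 the highest library. The Tfh groups did not overlap each other for Psmb5, and Tfh_tumour lay below Tfh_OTII for Psmb3. Psmc1, an ATPase of the cap followed after its values were seen, was lower in Th1_WT as deposited. It was at 163, 140 and 154 TPM in Tfh_tumour, 208, 193 and 195 in Tfh_WT, 245, 285 and 299 in Tfh_OTII, and 38.3, 56.3 and 79.3 in Th1_WT. As deposited its order was Tfh_OTII, Tfh_WT, Tfh_tumour and Th1_WT, with no overlap between neighbours. On scaled TPM, Tfh_OTII overlapped Tfh_WT (170 to 284 against 150 to 189) and Tfh_tumour overlapped Th1_WT (98.4 to 142 against 70.3 to 119). Psmc1 does not stand for the ATPase ring. It was the only ATPase called higher against Th1_WT on scaled TPM, in Tfh_OTII alone, while 2 ATPases were called lower in Tfh_tumour.

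In Tfh_WT against Th1_WT, limma called 1 member higher and 12 lower of 44 on scaled TPM, at an adjusted p under 0.05; among all 21894 genes tested 9.15% were called higher and 5.61% lower. The median log2 fold change of the members was -0.38, against 0.09 over all genes tested. On TPM as deposited limma called 23 members higher and 0 lower (0 also at an unadjusted p under 0.05). Of all genes 41.1% were called higher and 0.511% lower on that scale. The median of the members was then 0.69, against 0.78 over all genes. Of the 12 members called lower on scaled TPM, 0 were called higher as deposited. In bulk samples, less RNA per cell and fewer cells of a type cannot be told apart. The scaled count also rested on few libraries: 2 members were called without Tfh_WT replicate 2, 3 without Tfh_WT replicate 3, and 8 without Th1_WT replicate 3.

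By role, the lower calls in that comparison were 5 of 8 beta-ring genes (Psmb2 to Psmb6), 2 of 7 alpha-ring genes, 3 of 11 other 19S subunits, 2 of 7 chaperones and 0 of 6 ATPases. Psmb3 was lower by a log2 fold change of -1.30 ± 0.27 (SE; limma adjusted p = 0.00729, range over the alternatives 0.00237 to 0.937), and -0.23 as deposited. Psma1, an alpha-ring subunit, was at -1.15 ± 0.25 (limma adjusted p = 0.00952, range 0.00702 to 0.962), and -0.08 as deposited. Psmb5 was at -1.05 ± 0.24 scaled (limma adjusted p = 0.0116, range 0.00347 to 0.977) but 0.01 as deposited, so its direction turned with the scaling; it was also no longer called without Tfh_WT replicate 2 (0.0502) or 3 (0.0626). Psmc1 was at 0.75 ± 0.28 (limma adjusted p = 0.0873, range 1.43e-05 to 0.267), short of a call on scaled TPM.

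Only Psmc3ip was called higher on both scales in that comparison. It encodes a partner of the recombinases of meiosis that was named for binding Psmc3. Psmc3ip was at 25.0, 27.0 and 24.5 TPM in Tfh_WT, 46.0, 58.2 and 55.9 in Tfh_OTII, 15.7, 12.0 and 15.2 in Tfh_tumour, and 3.39, 6.72 and 5.84 in Th1_WT. As deposited no groups overlapped; on scaled TPM Th1_WT replicate 2, at 14.2, was above the 3 Tfh_tumour libraries, at 8.45 to 13.7. Psmc3ip rose by a log2 fold change of 1.14 ± 0.30 in Tfh_WT against Th1_WT (limma adjusted p = 0.0211, range 4.44e-05 to 0.0861); it was no longer called when Tfh_WT replicate 1 (limma adjusted p = 0.0652) or 2 (0.0861) or Th1_WT replicate 1 (0.0742) or 3 (0.0599) was left out.

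In Tfh_OTII against Th1_WT, 4 members were called higher and 11 lower on scaled TPM, where 12.7% and 8.42% of all genes were; as deposited limma called 27 higher and 0 lower, 0 also at an unadjusted p under 0.05, with 42.7% of all genes called higher and 1.16% lower. The scaled count was 9 without Tfh_OTII replicate 1. All 4 higher members were also called higher as deposited. Psmc3ip rose by 2.13 ± 0.30 (limma adjusted p = 0.000324, highest over the alternatives 0.00491). Psmc1 rose by 1.18 ± 0.28, and its adjusted p by limma stayed at or below 0.0467 in every alternative run. Psmg4, a chaperone that helps assemble the alpha ring, was at 118, 113 and 126 TPM against 13.4, 28.0 and 26.4, and rose by 1.31 ± 0.33 (limma adjusted p = 0.0123, range 2.19e-05 to 0.0537; 0.0537 without Tfh_OTII replicate 3 and 0.0517 without Th1_WT replicate 1). Psme2b rose by 1.77 ± 0.44 (limma adjusted p = 0.0129, range 7.76e-05 to 0.0515; 0.0515 without Tfh_OTII replicate 3).

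The lower genes again included Psmb2 to Psmb6. Psmb5 was at -1.29 ± 0.24 on scaled TPM and -0.18 as deposited, Psmb3 at -1.16 ± 0.27 and -0.05, and Psmb6, the caspase-like cutting subunit, at -1.16 ± 0.27 and -0.04. None of the 3 was called as deposited, and without Th1_WT replicate 3 all 3 were above 0 on that scale.

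In Tfh_tumour against Th1_WT, 1 member was called higher and 16 lower on scaled TPM, where 10.9% and 7.69% of all genes were; as deposited limma called 20 higher and 0 lower, 0 also at an unadjusted p under 0.05, with 49.3% of all genes called higher and 0.601% lower. The scaled count was 11 without Tfh_tumour replicate 2, Tfh_tumour replicate 3 or Th1_WT replicate 3. The lower calls held 6 of 8 beta-ring genes, Psmb2 to Psmb7, with Psmb5 at -1.60 ± 0.24 (limma adjusted p = 0.00124, range 0.000397 to 0.599) and Psmb3 at -1.53 ± 0.27 (limma adjusted p = 0.00287, range 0.00123 to 0.745). Psmd3 was at -1.37 ± 0.29 (limma adjusted p = 0.00668, range 0.00361 to 0.809). As deposited the same 3 genes were at -0.41, -0.33 and -0.18, and none was called.

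Psme2b was the single higher call. It is a single-exon copy of Psme2 (chr11:48945354-48946190, minus strand), the inducible activator gene, so reads may be split between the copies and its level is uncertain. It was at 44.1, 118 and 55.7 TPM in Tfh_tumour, 19.3, 15.6 and 21.1 in Tfh_WT, 24.3, 26.4 and 26.5 in Tfh_OTII, and 0.961, 3.66 and 6.89 in Th1_WT. On both scales all Tfh_tumour libraries were above all others, and the highest, replicate 2, was also the library with most macrophage marker RNA. It rose by 3.01 ± 0.44 against Th1_WT (limma adjusted p = 0.00114, highest over the alternatives 0.0261). Against Tfh_WT it was at 1.64 ± 0.44 (limma adjusted p = 0.0791, range 0.0283 to 0.283).

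**Figure D3:**
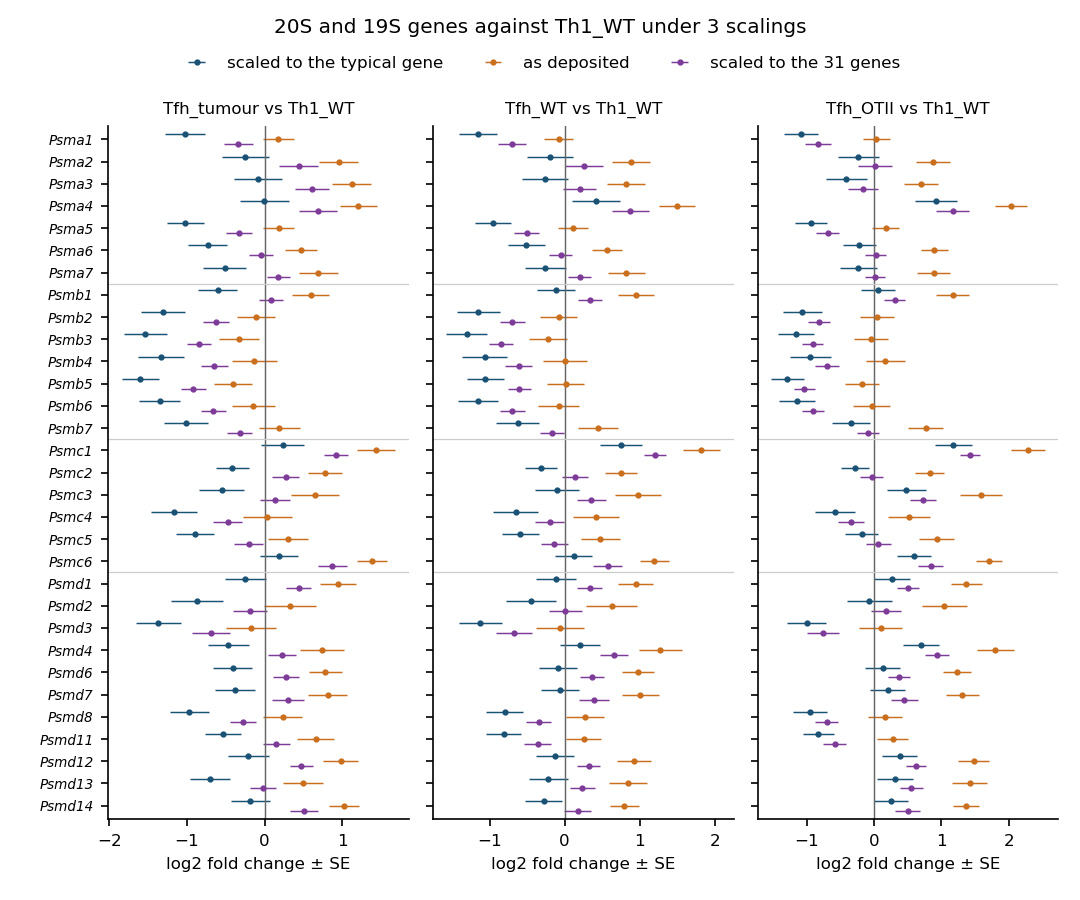
Log2 fold change ± SE (horizontal axes) of the 31 20S and 19S genes (vertical axis, ring by ring) in each Tfh group against Th1_WT, on scaled TPM, on TPM as deposited, and scaled to the 31 genes themselves. The choice of scale shifts all genes together, and Psmb2 to Psmb6 stay to the left of most other genes, with Psmb3 at -1.30, -0.23 and -0.85 in Tfh_WT.

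To set the common shift aside, an alternative added after seeing the data scaled each library to the geometric mean of the 31 genes, so that a value is relative to the particle. Psmb2, Psmb3, Psmb4, Psmb5 and Psmb6 were then called lower in each of the 3 Tfh groups against Th1_WT, where 1.71%, 3.83% and 2.21% of all genes were called lower in Tfh_WT, Tfh_OTII and Tfh_tumour. Psmb3 was at -0.85, -0.92 and -0.85, and Psmb5 at -0.60, -1.04 and -0.92, in that order of groups. Psmc1 was called higher in all 3, at 1.20, 1.42 and 0.92, where 15.5%, 14.5% and 26.5% of all genes were called higher. In all, 6 members were higher and 6 lower in Tfh_WT, 11 and 10 in Tfh_OTII, and 6 and 5 in Tfh_tumour. This scaling centres the 31 genes, so low beta-ring values raise the others, Psmc1 included, and the near-even split is partly built in. The genes as a whole are not centred in this way. Their median log2 fold changes were 0.41, 0.24 and 0.59 in Tfh_WT, Tfh_OTII and Tfh_tumour. Psma1 was the other lower member in Tfh_WT, and Psma1, Psma5, Psmd3, Psmd8 and Psmd11 were the others in Tfh_OTII. The 3 comparisons share the Th1_WT libraries and are not independent of each other.

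Transcript length and base composition moved with the differences from Th1_WT. These differences were taken between log2 group means of TPM as deposited, not from the fold changes scaled to the 31 genes. They covered the 29 of the 31 genes with a principal transcript in the annotation. Spearman's rho with transcript length was 0.44 in Tfh_WT, 0.43 in Tfh_OTII and 0.52 in Tfh_tumour. With GC content it was -0.53, -0.46 and -0.74. Over 5844 genes at 10 TPM or more, the same values were 0.08, 0.07 and 0.21 for length and -0.15, -0.16 and -0.27 for GC. The beta ring has the shortest transcripts, with a median of 899 bases against 1201 in the alpha ring, 1614 in the ATPase ring and 1989 among the other 19S subunits. The part of length and GC in the result was not tested; genes of 1 library share its preparation, so these are descriptions.

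**Figure D4:**
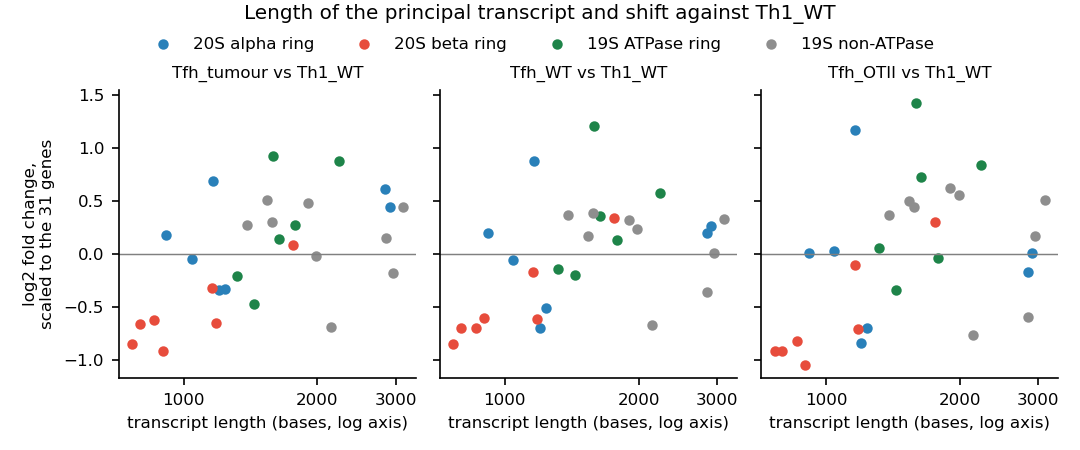
Log2 fold change against Th1_WT scaled to the 31 genes (vertical axis) against the length of the principal transcript in bases (horizontal log axis) for 29 genes, 1 panel per Tfh group, coloured by ring. Beta-ring genes lie mostly at the short end and below 0. Spearman's rho of 0.52, 0.44 and 0.43, from left to right, belongs to differences of group means of TPM as deposited. It was not computed on the plotted values.

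The order of the 31 genes by level was less alike among Th1_WT libraries. Spearman's rho between libraries of a group was 0.984 to 0.985 in Tfh_OTII, 0.922 to 0.944 in Tfh_WT, 0.879 to 0.962 in Tfh_tumour and 0.521 to 0.842 in Th1_WT. Th1_WT replicate 3 differed from its replicates in composition too: TPM over the 29 genes had a rho of 0.54 with GC content, against -0.11 and -0.19 in replicates 1 and 2.

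The ATPases Psmc1 and Psmc3, the ubiquitin receptor Psmd4, the lid subunit Psmd13, the chaperone Psmg4, and Psmc3ip were lower in tumour Tfh cells than in the OT-II culture. These were 6 of 44 members, with 0 higher (1 at an unadjusted p under 0.05), where limma called 8.58% of all genes lower and 7.49% higher. The count of lower members is near that share, so it is no result about the particle or its cap as a whole. Scaled to the 31 genes, limma called 3 members higher, Psma3, Psmd11 and Psme2b, and 5 lower, all but Psmc3 of the 6, where 11.7% and 4.7% of all genes were called. Psmd11 and Psme2b were also called higher with size factors from genes at 10 TPM or more. Psmd4 was at 113, 119 and 109 TPM in Tfh_tumour and 231, 243 and 244 in Tfh_OTII. Psmd13 was at 68.8, 65.7 and 60.2 TPM against 115, 120 and 138. As deposited, every Tfh_tumour library was below every Tfh_OTII library for 26 of the 44 members, against 19.1% of all genes tested. The 6 genes, chosen for being lower, were among these 26. On scaled TPM the same held for 14 of the 44 members, against 18.7% of all genes tested. Every Tfh_tumour library was above every Tfh_OTII library for 6 members as deposited and 2 on scaled TPM.

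**Figure D5:**
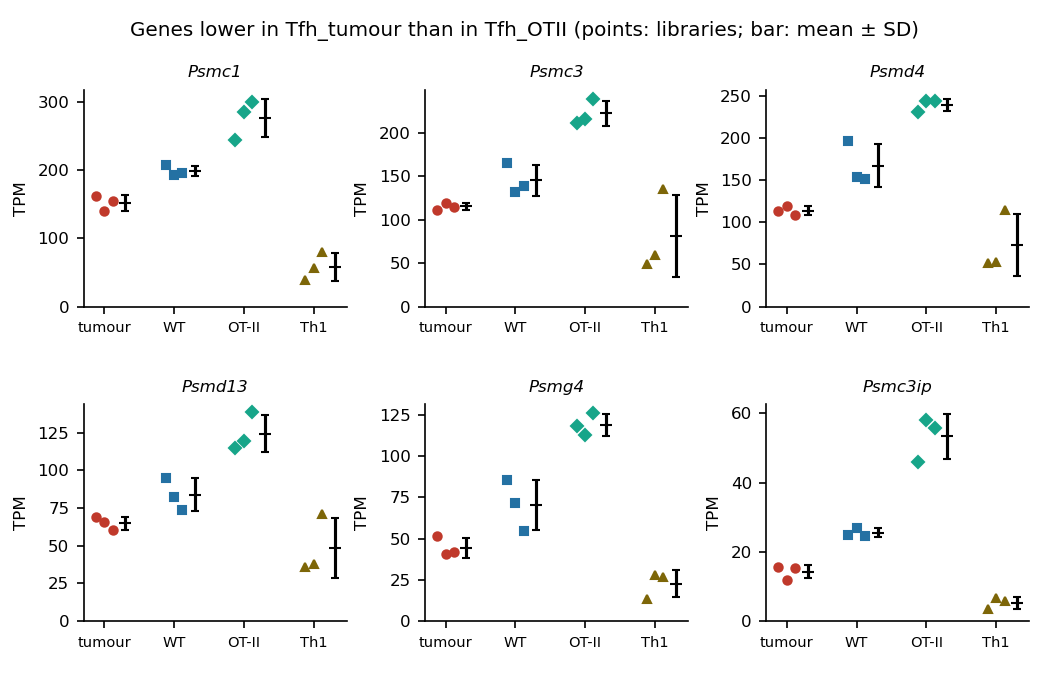
TPM as deposited (vertical axes, from 0) of the 6 genes called lower in Tfh_tumour than in Tfh_OTII, in all 4 groups; points are libraries and bars are mean ± SD (n = 3). In each panel the Tfh_OTII libraries are the highest, for example Psmd4 at 231 to 244 TPM against 109 to 119 in Tfh_tumour.

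Psmc3ip fell by 1.90 ± 0.30 on the log2 scale (limma adjusted p = 0.00119, range 0.000358 to 0.00981) and Psmg4 by 1.49 ± 0.33 (limma adjusted p = 0.00833, range 0.00456 to 0.0492), and both kept the call in every alternative run. Psmd4 fell by 1.16 ± 0.27 (limma adjusted p = 0.0113, range 0.00393 to 0.0779; 0.0610 without Tfh_OTII replicate 3). Psmd13 fell by 1.01 ± 0.26 (limma adjusted p = 0.0198, range 0.00808 to 0.112), Psmc1 by 0.94 ± 0.28 (limma adjusted p = 0.0344, range 0.0183 to 0.150) and Psmc3 by 1.03 ± 0.29 (limma adjusted p = 0.0302, range 0.0144 to 0.171; 0.0585 as deposited). Without Tfh_tumour replicates 2 and 3 and Tfh_OTII replicates 2 and 3, left out in turn, the limma adjusted p was 0.0609, 0.0687, 0.0644 and 0.101 for Psmd13, 0.111, 0.0856, 0.114 and 0.150 for Psmc1, and 0.0806, 0.0808, 0.0894 and 0.134 for Psmc3, which was also not called without Tfh_tumour replicate 1 (0.0507). The count of calls was 3 without Tfh_tumour replicate 2, Tfh_tumour replicate 3 or Tfh_OTII replicate 2, and 2 without Tfh_OTII replicate 3. No alpha-ring or beta-ring gene was called on scaled TPM, and as deposited, where 7.29% of all genes were called lower, Psma4 took the place of Psmc3.

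Genes of cell division moved in the same comparison. All 12 genes of a mitosis list were lower in Tfh_tumour than in Tfh_OTII, with Ccnb1, the mitotic cyclin B1, at 14.0, 14.8 and 16.6 TPM against 82.5, 84.6 and 96.2 (log2 fold change -2.53, limma adjusted p = 0.000105). Of 7 genes of the CCT chaperonin, which folds actin and tubulin, 2 were lower, Cct5 and Tcp1. Against Th1_WT, all 12 mitosis genes were higher in Tfh_WT and Tfh_OTII on both scales (9.15% and 12.7% of all genes scaled). There 12 and 11 members were lower and 1 and 4 higher on scaled TPM, but 23 and 27 were higher as deposited. In Tfh_tumour, 5 mitosis genes were higher (10.9%), 16 members lower and 1 higher on scaled TPM. As deposited, 12 and 20 were higher. In Tfh_tumour against Tfh_WT, 7 mitosis genes were lower (1.17%) and 0 members were called. The part of proliferation in the proteasome values was not tested.

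Between Tfh_OTII and Tfh_WT limma called 0 of 44 members (2.07% of all genes), with 2 higher and 0 lower at an unadjusted p under 0.05; on TPM as deposited it called 1 (2.38% of all genes), Psmc3ip, at a log2 fold change of 1.03 (limma adjusted p = 0.0403), against 0.99 ± 0.30 scaled (limma adjusted p = 0.129, range 0.0320 to 0.501). Between Tfh_tumour and Tfh_WT it called 0 (2.34% of all genes), with 2 higher and 4 lower at an unadjusted p under 0.05, and 0 as deposited (2.1% of all genes; 2 higher and 2 lower unadjusted). Members' medians were 0.19 and -0.24.

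Among the activators, Psme4, which caps the core and is known for the degradation of acetylated histones, was at 45.2, 69.0 and 39.0 TPM in Tfh_tumour, 29.1, 24.8 and 32.3 in Tfh_WT, 35.5, 36.8 and 35.1 in Tfh_OTII, and 25.6, 21.2 and 17.8 in Th1_WT. As deposited its Tfh_tumour libraries were above all others, but on scaled TPM they overlapped Th1_WT (29.4 to 48.6 against 26.7 to 47.0), and the difference from Tfh_WT was 0.64 by limma (adjusted p = 0.278, range 0.128 to 0.663). The nuclear activator Psme3 ranged from 82.0 to 156 TPM and the inhibitor Psmf1 from 12.7 to 26.2 TPM over the 12 libraries. Psmd14, the deubiquitinase of the lid, was at 138 to 171 TPM in Tfh_tumour, 125 to 137 in Tfh_WT, 178 to 209 in Tfh_OTII and 65.3 to 81.8 in Th1_WT. These are levels as deposited, and the low level in Th1_WT depended on that scale. In Tfh_WT against Th1_WT its log2 fold change was 0.79 as deposited but -0.28 ± 0.25 on scaled TPM (limma adjusted p = 0.485).

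The inducible genes, which are no members, give the other side of the core. The summed TPM of Psmb8, Psmb9 and Psmb10 over that of the constitutive cutting subunits Psmb5, Psmb6 and Psmb7 was 1.02, 1.87 and 1.22 in Tfh_tumour, 0.835, 0.782 and 0.857 in Tfh_WT, 0.965, 0.895 and 1.02 in Tfh_OTII, and 0.478, 0.565 and 0.693 in Th1_WT. Every Th1_WT library was below every other library, and the highest was Tfh_tumour replicate 2, where the macrophage markers summed to 752 TPM. The pairs differed. Psmb8 over Psmb5 was 1.01 to 1.54 in Th1_WT and at least 2.35 in each other library. Psmb9 over Psmb6 was 0.228 to 0.347 in Th1_WT, which overlapped Tfh_WT (0.317 to 0.407) and Tfh_OTII (0.288 to 0.351). Psmb10 over Psmb7 was higher in Th1_WT, at 0.339 to 0.505, than in Tfh_WT (0.176 to 0.277) or Tfh_OTII (0.178 to 0.200), without overlap. The activator pair split. Psme1 rose in Tfh_OTII against Th1_WT on both scales (1.29 scaled, limma adjusted p = 0.0170, range 2.18e-06 to 0.0676). Its limma adjusted p was 0.0673 with only the 2 groups in the fit. It was 0.0640 and 0.0660 without Tfh_OTII replicates 2 and 3, and 0.0676 without Th1_WT replicate 1. Psme2 was at -1.84 ± 0.31 scaled (limma adjusted p = 0.00136, range 0.000136 to 0.340) and -0.72 as deposited, where it was not called. Psme1 over Psme2 was 6.20 to 6.94 in Tfh_OTII, 3.09 to 4.34 in Tfh_WT, 1.47 to 1.54 in Tfh_tumour and 0.665 to 0.855 in Th1_WT, and reads of Psme2 may be shared with Psme2b.

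Of the related lists, Nfe2l1 encodes Nrf1, the factor known to raise proteasome genes when the particle is inhibited. Its list held Nfe2l1, Ddi2, Ngly1, Vcp, the Maf genes Maff, Mafg and Mafk, and Nfe2l2, which encodes the related factor Nrf2. Of these 8 genes, 1 was lower in Tfh_WT and 1 in Tfh_OTII against Th1_WT on scaled TPM, and 0 in Tfh_tumour. As deposited 2, 2 and 5 were higher. Of all genes, 5.61%, 8.42% and 7.69% were lower on scaled TPM and 41.1%, 42.7% and 49.3% higher as deposited in these comparisons, and nothing is read from counts this small. Nfe2l1 was at 62.7 to 92.1 TPM in Tfh_tumour, 45.8 to 55.7 in Tfh_WT, 51.0 to 65.3 in Tfh_OTII and 22.8 to 68.7 in Th1_WT, and was called in none of the 6 comparisons on scaled TPM. Pomp, the factor that matures the core, was at 105 to 124, 116 to 157, 137 to 142 and 61.8 to 148 TPM in the same order and was likewise not called.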

How the data were processed

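The authors deposited 1 table of TPM per library, made with kallisto on mm10 per the submitters' processing notes; the kallisto version and the annotation are not given in the sources used here. Per the labels, RNA of 300000 cells was made into stranded, ribosomal RNA-depleted libraries and read as pairs of 75 bases. Here TPM were divided by median-of-ratios size factors from 17585 genes above 0 in all 12 libraries, and log2(scaled TPM + 1) was tested with limma 3.58.1 (R 4.3.3) with an intensity trend, 1 mean per group over all libraries, 6 contrasts, and Benjamini-Hochberg adjustment over 21894 genes with a mean of at least 1 scaled TPM in 1 group or more. Genes were called under 0.05. Fold changes are on the log2(value + 1) scale, which understates changes of low genes, and errors are limma's SE. The fit was tested on simulated data. Python 3.11.15, pandas 2.3.3 and scipy 1.17.1 made the tables, and matplotlib 3.10.9 the figures.

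The text names, per comparison, the called members at both ends of the fold changes, 3 at each end (all if 5 or fewer), the catalytic, activator, inhibitor and tissue-restricted genes, the extremes of each role, Pomp, Nfe2l1 and members that are no subunits; it gives a part of these, and Psmc1 was followed throughout after its values were seen. The members and lists were chosen with earlier results of these data known. Nothing in the labels says that replicates are separate animals or cultures, so a p-value reflects no more than how these libraries vary, possibly for technical reasons. Alternatives were TPM as deposited, other size factors, the pseudocount, the filter, the groups in the fit, the replicate number as a block and each library left out.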

Additional observations from a re-analysis of the deposited data

How the results depend on the processing

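The counts of members called moved with the scale, the groups in the fit and single libraries. On TPM as deposited they were 23 in Tfh_WT against Th1_WT, 27 in Tfh_OTII against Th1_WT and 1 in Tfh_OTII against Tfh_WT, and in both comparisons with Th1_WT all calls were then higher. With only the groups compared in the fit, which leaves fewer libraries to estimate the spread, counts were 6, 8 and 5 in Tfh_WT, Tfh_OTII and Tfh_tumour against Th1_WT and 1 each in Tfh_OTII and Tfh_tumour against Tfh_WT. Scaling to the 31 genes gave 11 in Tfh_tumour against Th1_WT, and it, the 5 TPM filter and size factors from genes at 10 TPM or more each gave 1 in Tfh_tumour against Tfh_WT; the cause was not tested. Leaving out each library in turn gave 2 to 15 calls in Tfh_WT, 9 to 16 in Tfh_OTII and 11 to 21 in Tfh_tumour against Th1_WT, 2 to 7 in Tfh_tumour against Tfh_OTII, and 0 in the other comparisons. As deposited, the same gave 17 to 30, 23 to 31, 15 to 30 and 2 to 5, with 0 to 1 in Tfh_tumour against Tfh_WT; single values were 20 without Tfh_WT replicate 2, 24 and 25 in Tfh_OTII without Th1_WT replicates 1 and 2, and 3 in Tfh_tumour against Tfh_OTII without Tfh_tumour replicate 1 or 2. The deposited fits with a library left out, the scaling to the 31 genes and the size factors at 10 TPM were added after seeing the data.

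Of the 12, 11 and 16 members lower on scaled TPM in Tfh_WT, Tfh_OTII and Tfh_tumour against Th1_WT, 7, 8 and 8 had log2 fold changes above 0 as deposited, 0 of them called. Among the named genes, which were recomputed under every alternative, the values above 0 were these. In Tfh_WT against Th1_WT, Psmb5 was at 0.012 with all libraries, 0.031 and 0.051 without Tfh_WT replicates 2 and 3, and 0.322 without Th1_WT replicate 3. Psmb2 was at 2.28e-05 without Tfh_WT replicate 2, and 0.025 and 0.097 without Th1_WT replicates 2 and 3. Psmb6 was at 0.023 without Tfh_WT replicate 2 and 0.266 without Th1_WT replicate 3, Psmb3 at 0.022 without Th1_WT replicate 3, and Psma1 at 0.049 without Th1_WT replicate 2. Without Th1_WT replicate 3, Psmb5, Psmb3 and Psmb6 were at 0.126, 0.203 and 0.304 in Tfh_OTII, and Psmd3 and Psmb6 at 0.283 and 0.198 in Tfh_tumour. On scaled TPM with a library left out, Psmc1 in Tfh_tumour against Th1_WT ranged from -0.041 (without Th1_WT replicate 1) to 0.362 (without Tfh_tumour replicate 2).

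Correlations of the deviations of same-numbered libraries ran from -0.46 to 0.29 over 18 pairs, 2 of them over 0.1. Libraries of other numbers reached 0.41 (Tfh_WT replicate 1 with Tfh_OTII replicate 3). With deviations from means of only 3 libraries, these values cannot decide whether the numbers pair the samples. With the replicate number as a block, 12, 14 and 15 members were called against Th1_WT and 5 in Tfh_tumour against Tfh_OTII, where Psmc1 had a limma adjusted p of 0.0597. Depth is unknown, so no counting error can be given.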
